A study of Mus musculus with 20 samples.

Results

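Hmgcs1, Sqle, Insig1, Idi1, Fdft1, Lss, and Dhcr7 are 7 genes of cholesterol synthesis and its control, described here in the proximal colon (PC) of mice fed with resistant potato starch (RPS). They were chosen by name as genes of the pathway controlled by SREBP2. All 7 were found among the 12701 genes of the count table by matching Ensembl identifiers to GENCODE symbols. RNA was sequenced from 20 mice of C57BL/6, an inbred laboratory strain. From weaning they had spent 6 weeks on a feed built on American nutrient intake, the Total Western Diet (TWD). For 3 more weeks they received the same TWD with 0, 2, 5, or 10% raw potato starch, 5 mice per diet. All 4 groups therefore share the TWD, and the 3 starch diets are compared with the same 5 mice on 0% RPS. The tissue was a whole segment of colon, so each value is a mean over epithelium, muscle, and other cells. Fewer cells of a type and less RNA per cell cannot be told apart in such samples.

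Cells make cholesterol from acetyl units through mevalonate, squalene, and lanosterol. When sterol in the membrane of the endoplasmic reticulum falls, the escort protein SCAP carries the transcription factor SREBP2 to the Golgi, where proteases release its active part, and this switches on the genes of the pathway. When sterol is plentiful, the INSIG proteins hold SCAP and SREBP2 back, and the nuclear receptor LXR switches on genes for sterol export. The gut epithelium renews itself continuously, and both cholesterol made in the cell and cholesterol taken up supply its membranes.

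The library totals were 20581013 to 35083751 counts, with a median of 26354926. Values are given as normalised read counts, which are counts divided by a size factor for each library. Markers of epithelium and of smooth muscle were present in every library. The library of 0% RPS replicate 2 stood apart from the others of its diet, with a mean distance of 56.4 compared with 28.7 to 41.7 for the other 19 libraries and the others of their diets (Euclidean distance over log2(normalised count + 1) of genes with a mean of at least 50). Of the libraries, 3 have numbers in their labels outside the run of the other 17, namely 2% RPS replicate 5, 10% RPS replicate 4, and 10% RPS replicate 5. The members' fold changes, spread, and correlations, and the genes called at 10% RPS, are also given without 0% RPS replicate 2 and without these 3 libraries.

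SREBP2 acts through sterol regulatory elements in promoters, usually beside sites for the factors NF-Y and SP1, so the stretches before the start sites of 2 members are shown. They come from the RefSeq promoter table (made on GRCm38.p6), which holds 5 of the 7 members, all but Sqle and Fdft1. Positions are counted from the start site, and coordinates are those of the only match on GRCm39. The Hmgcs1 stretch is chr13:120151637-120151886 (plus strand, positions -250 to -1). The Insig1 stretch is chr5:28276160-28276314 (plus strand, positions -250 to -96), which ends at the base before the first annotated exon of the gene. Capitals mark the sterol element in the form TCACNCCAC and the NF-Y motif CCAAT, which reads ATTGG on the other strand.
Hmgcs1: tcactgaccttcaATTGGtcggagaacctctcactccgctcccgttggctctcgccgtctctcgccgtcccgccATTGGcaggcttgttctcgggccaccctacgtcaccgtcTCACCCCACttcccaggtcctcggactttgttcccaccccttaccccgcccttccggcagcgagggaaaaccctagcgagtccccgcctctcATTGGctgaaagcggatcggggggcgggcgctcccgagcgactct
Insig1: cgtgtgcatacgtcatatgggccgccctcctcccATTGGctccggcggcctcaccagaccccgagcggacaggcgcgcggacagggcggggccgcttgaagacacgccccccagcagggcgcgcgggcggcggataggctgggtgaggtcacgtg
The letters TCACNCCAC, searched on both strands in the 300 bases from -250 to +50, were present in Hmgcs1 alone among the 5 members (positions -137 to -129). They were present in 1.24% of all 32851 promoters and in 1.44% of 27025 genes, where a gene counts by any of its start sites. By this count CCAAT was present in all 5 members and in 41.1% of genes (37.4% of promoters). The GC box of SP1 (CCGCCC) was also present in all 5 and in 38.2% of genes (35.7% of promoters). In Hmgcs1 the sterol element lay between NF-Y motifs at -176 to -172 and -45 to -41. Insig1 had 1 NF-Y motif, at -216 to -212. Outside the printed stretches, NF-Y motifs lay at -45 to -41 and -14 to -10 in Idi1, at -62 to -58 in Lss, and at -85 to -81 and -49 to -45 of the start site of Dhcr7 that lies farthest along the gene. These matches are descriptions of letters, and the absence of a motif says only that those letters are not in this window.

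The first question was whether RPS changed the members. None of the 7 passed the test at any starch level, although all 7 had higher means than 0% RPS in every comparison. Calls required a fold change of at least 1.5 and a DESeq2 adjusted p no higher than 0.05, and by this rule 0.0239% of 12561 genes were called at 2% RPS, 0.438% at 5% RPS, and 0.900% at 10% RPS. Against these shares, 0 of 7 members says little either way. The 7 members had a median log2 fold change of 0.39 at 2% RPS, 0.50 at 5% RPS, and 0.32 at 10% RPS, where the median over all genes was -0.01, -0.01, and 0. The lowest adjusted p of any member was 0.615 at 2% RPS, 0.355 at 5% RPS, and 0.355 at 10% RPS. At an unadjusted p under 0.05 the count was also 0 of 7 at each level by both DESeq2 and edgeR. Over all genes, DESeq2 gave such a p to 1093, 2087, and 2365 of 12561 at 2, 5, and 10% RPS. For edgeR it was 1000, 1962, and 2230 of 12366 genes, so 0 of 7 again says little either way. With edgeR, the lowest adjusted p was 0.621, 0.356, and 0.366. Without 0% RPS replicate 2 all 21 log2 fold changes stayed above 0 (0.057 to 0.63). Without the 3 libraries numbered apart, those at 10% RPS were lower, at -0.092 (Insig1) to 0.25 (Sqle), with 0.15 for Hmgcs1, 0.033 for Idi1, 0.12 for Fdft1, -0.035 for Lss, and 0.087 for Dhcr7.

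The members are described in the order of the pathway. Hmgcs1 makes HMG-CoA, from which mevalonate is formed. The gene (ENSMUSG00000093930, chr13:120151915-120170470 on GRCm39, plus strand) had the highest level of the 7 per length, with 1154 ± 475 normalised counts per kb of its canonical transcript (SD, n = 20). Its normalised counts were 2263, 3519.6, 3917, 4001, and 4028 at 0% RPS and 5294.5, 5361, 5139, 2789, and 6697 at 2% RPS. They were 8129, 6573, 7813, 2313, and 2596 at 5% RPS and 4326, 2732, 4758, 8523, and 3769 at 10% RPS. Most libraries of the starch diets lay above those of 0% RPS, but each starch diet also had at least 1 library among the low values, and the groups overlapped. The mean was 3546 ± 746 at 0% RPS, 5056 ± 1413 at 2% RPS, 5485 ± 2829 at 5% RPS, and 4821.5 ± 2204 at 10% RPS (SD, n = 5). At 5% RPS the log2 fold change was 0.63 with an SE of 0.35 (95% interval -0.06 to 1.32, DESeq2 adjusted p = 0.355). At 2% RPS it was 0.51 (-0.18 to 1.20) and at 10% RPS 0.44 (-0.25 to 1.13). All 3 intervals included 0 and extended past 1.5-fold higher, so a change of the size used for calls could not be told from none at this spread.

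Idi1 converts isopentenyl diphosphate to its isomer, the starter of the isoprenoid chain (ENSMUSG00000058258, chr13:8935537-8942487). Libraries had 895 to 1997 normalised counts of it at 0% RPS (median 1797), 1088 to 2904 at 2% RPS (median 2192), 1006 to 3465 at 5% RPS (median 2632), and 1236 to 3473 at 10% RPS (median 1781). The 5% group split into 3 libraries of 2632, 3218, and 3465 and 2 libraries of 1006 and 1122, the latter close to the lowest of 0% RPS. For Idi1 the log2 fold change was 0.39 at 2% RPS, 0.50 at 5% RPS, and 0.34 at 10% RPS, with an SE of 0.37 each and DESeq2 adjusted p of 0.794, 0.505, and 0.649. Of 3730 windows of 50 bases in its transcripts, 635 also occur in 4 Idi1 pseudogenes, so its counts depend on how the authors assigned such reads.

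Fdft1, squalene synthase, commits the pathway to sterols (ENSMUSG00000021273, chr14:63382189-63417027, minus strand). Fdft1 had normalised counts of 1336, 1792, 1928, 2069, and 2242.5 at 0% RPS and 2835, 3013, 2667, 1621, and 3540.4 at 2% RPS. They were 3798, 3189, 4016, 1163, and 1517.5 at 5% RPS and 2248, 1628, 2216, 3554, and 2029.6 at 10% RPS. Of the 5 libraries at 2% RPS, 4 lay above every library at 0% RPS, and the fifth lay among them. Log2 fold changes of Fdft1 were 0.55 at 2% RPS (95% interval -0.07 to 1.17), 0.55 at 5% RPS (-0.07 to 1.17), and 0.32 at 10% RPS (-0.30 to 0.94), none past the test. Of the exon bases of Fdft1, 24.8% overlap exons of Ctsb on the opposite strand, and whether reads were counted by strand is not given in the sources used here. Across the 20 libraries Fdft1 and Ctsb had r = 0.27 and rho = 0.32 (permutation p = 0.253 and 0.169, 1 relation, no adjustment needed). Without the 2 libraries farthest from the Fdft1 median, r was 0.003.

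Sqle, squalene epoxidase, adds oxygen to squalene, the first step of the pathway that uses it (ENSMUSG00000022351, chr15:59186869-59203043). Its normalised counts were 1160 to 1967 at 0% RPS, with a median of 1672. They were 1304 to 2911 at 2% RPS, with 4 of 5 libraries above every 0% RPS library. They were 1231.5 to 3485 at 5% RPS, where 3 libraries lay above, and 1418 to 3442 at 10% RPS, where 4 lay above. The log2 fold change was 0.52 (95% interval -0.07 to 1.12), 0.53 (-0.06 to 1.12), and 0.48 (-0.11 to 1.07) in this order. Lss, lanosterol synthase, closes the ring system (ENSMUSG00000033105, chr10:76367298-76392976) and had the lowest level per length, 165 ± 47.3 normalised counts per kb. Its normalised counts at 0% RPS were 683 to 1022 and at 5% RPS 706.6 to 1637, and its log2 fold change was 0.35, 0.40, and 0.21 at 2, 5, and 10% RPS.

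Dhcr7 reduces the precursor of vitamin D to cholesterol at the end of the pathway (ENSMUSG00000058454, chr7:143376740-143402149). It was the steadiest member. Its normalised counts were 2093, 2527, 2546, 2607, and 2672 at 0% RPS and 2307, 2697, 2790, 2938, and 3033 at 10% RPS. The mean of 10% RPS was 2753 ± 281 compared with 2489 ± 228 (SD, n = 5), 4 of the 5 libraries at 10% RPS lay above every library at 0% RPS, and the log2 fold change was 0.14 with an SE of 0.09 (95% interval -0.03 to 0.32, DESeq2 adjusted p = 0.355). At 5% RPS the log2 fold change was 0.04 (-0.13 to 0.21), and at 2% RPS 0.12 (-0.06 to 0.29). All 3 intervals lie within a change of 1.5-fold in either direction, unlike those of the other 6 members, each of which extends past 1.5-fold higher at every starch level.

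Insig1 is the feedback arm of the pathway, a protein that retains SREBP2 and is itself made on its command (ENSMUSG00000045294, chr5:28276315-28283668). Insig1 had normalised counts of 828, 1152, 1289, 1768, and 1731 at 0% RPS and 1361, 1608, 1261, 1117, and 2339 at 2% RPS. They were 3098, 1990.1, 2316, 705.8, and 895 at 5% RPS and 1277, 879.8, 1658, 2659.8, and 1114 at 10% RPS. The 5% diet held both the highest and the lowest library of all 20, which differed 4.39-fold. Log2 fold changes of Insig1 were 0.18 at 2% RPS (95% interval -0.57 to 0.93), 0.41 at 5% RPS (-0.34 to 1.16), and 0.16 at 10% RPS (-0.58 to 0.91). The direction rested on 1 library at 2% RPS (replicate 5) and 1 at 10% RPS (replicate 4), both among those numbered apart. With that library alone left out, the log2 fold change was -0.019 at 2% RPS and -0.14 at 10% RPS. Without the 3 libraries numbered apart it was -0.019 at 2% RPS and -0.092 at 10% RPS.

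**Figure D1:**
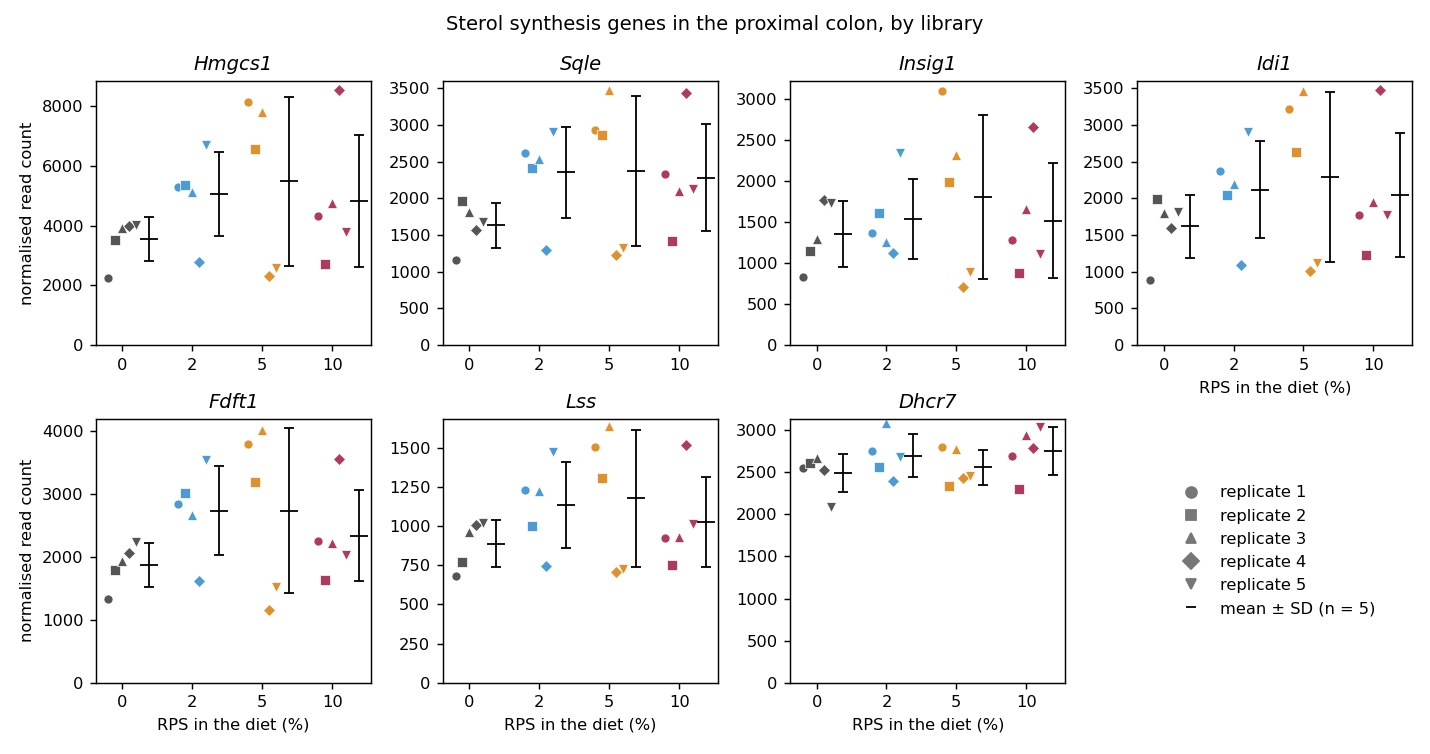
Normalised read count of each member in each library, by RPS in the diet (%), with 1 marker shape per replicate number and the mean ± SD of 5 libraries in black. For 6 of the 7 members the 5% RPS libraries fall into 3 high and 2 low values, as for Hmgcs1 at 6573 to 8129 against 2313 and 2596, while the values of Dhcr7 lie between 2093 and 3087.

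**Figure D2:**
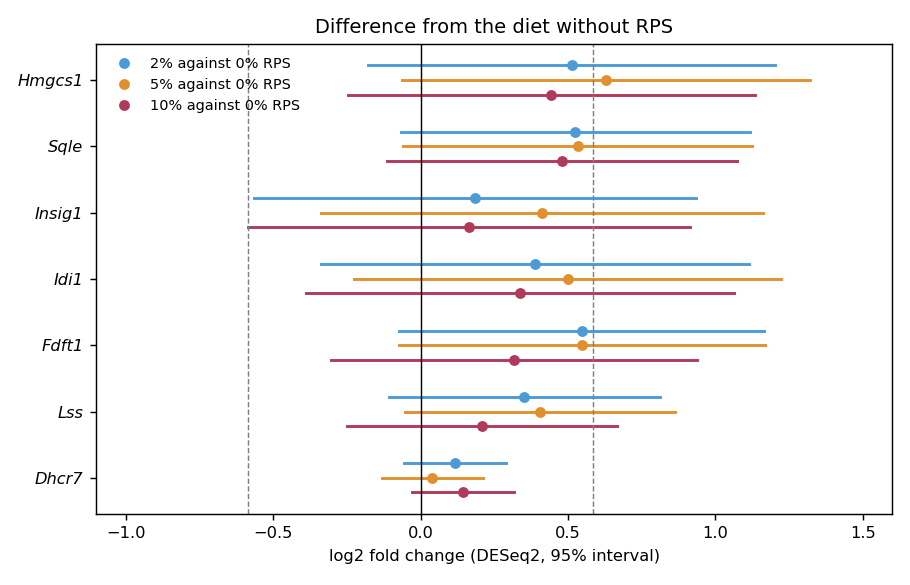
Log2 fold change of each member at 2, 5, and 10% RPS against 0% RPS with its 95% interval (DESeq2, all 20 libraries). The dashed lines mark a change of 1.5-fold. Every interval includes 0, and those of Dhcr7 are the narrowest.

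No member passed the test between starch diets either. Between 5 and 2%, 10 and 2%, and 10 and 5% RPS, the rule called 0%, 0.0557%, and 0.00796% of all genes and 0 of 7 members. The log2 differences of Hmgcs1 were 0.12 (95% interval -0.57 to 0.81), -0.07 (-0.76 to 0.62), and -0.19 (-0.88 to 0.50) in this order, and those of Dhcr7 were -0.08, 0.03, and 0.10. A linear trend over the percentage of RPS was called at an adjusted p no higher than 0.05. By DESeq2 it was called for 4.29% of 12545 genes and for 0 of 7 members. By edgeR it was called for 165 of 12366 genes and for 0 of 7 members. At an unadjusted p under 0.05 the count was also 0 of 7 by either tool. Over all genes that count was 2397 of 12545 by DESeq2 and 2265 of 12366 by edgeR. Beside these shares, 0 of 7 says little either way. The slopes were 0.01 to 0.03 on the log2 scale per 1% of RPS, and the lowest adjusted p was 0.509, for Dhcr7.

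The members other than Dhcr7 had a wide spread between mice on the same diet. The within-diet SD of log2(normalised count + 1) was 0.61 for Hmgcs1, 0.50 for Sqle, 0.63 for Insig1, 0.62 for Idi1, 0.52 for Fdft1, and 0.41 for Lss. The median over 11979 genes with a mean of at least 50 was 0.15. These 6 lay between the 95.6th percentile (Lss) and the 98.5th (Insig1) of those genes, and Dhcr7, with 0.14, lay at percentile 43.0. In plain terms, mice on 1 diet differed by an SD of 1.33-fold (Lss) to 1.55-fold (Insig1), and by 1.10-fold for Dhcr7. Without 0% RPS replicate 2 the SD of the 6 was 0.42 to 0.65. Without the 3 libraries numbered apart it was 0.39 to 0.61. Diet accounted for 2.70% (Insig1) to 18.0% (Dhcr7) of the variance of a member, compared with a median of 17.8% over all genes. These shares are descriptions, since 4 group means take up some variance by chance alone.

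**Figure D3:**
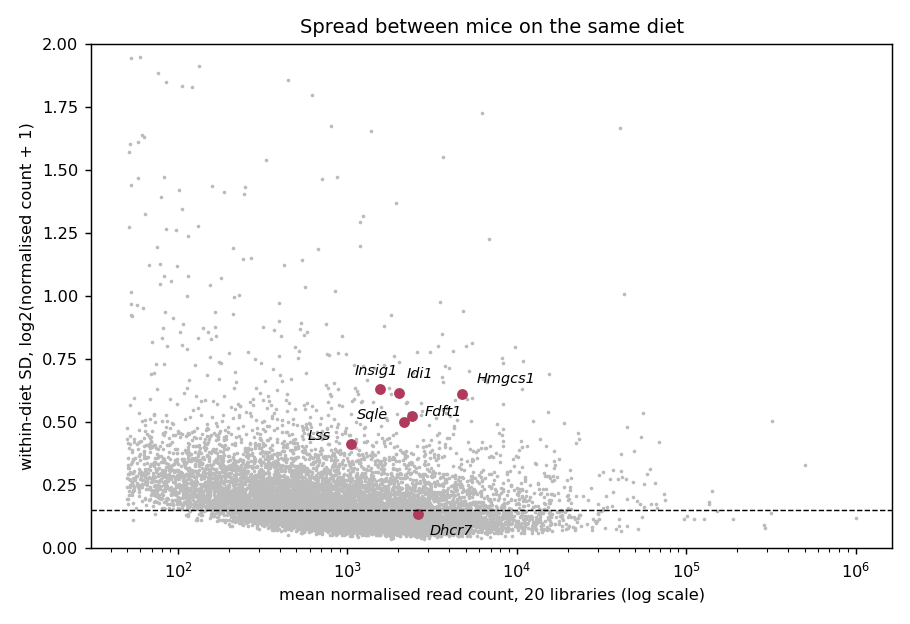
Within-diet SD of log2(normalised count + 1) against the mean normalised read count (log scale) of 11979 genes, with the 7 members in red and the median SD of 0.15 as a dashed line. The 6 other members lie at an SD of 0.41 to 0.63, while Dhcr7 lies at 0.14, below the line.

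Within a diet, 1 library was the lowest for 6 or 7 of the members, and 1 was the highest for 3 to 6 of them. In the 0% RPS group, replicate 1 was the lowest library for 6 of the 7 members, all but Dhcr7, and the highest, replicate 5, was so for 3 of 7. In the 2% RPS group, replicate 4 was lowest for all 7 and replicate 5 highest for 6. In the 5% RPS group, replicate 4 was lowest for 6 and replicate 3 highest for 4. In the 10% RPS group, replicate 2 was lowest for all 7 and replicate 4 highest for 6. Of these high libraries, 2% RPS replicate 5 and 10% RPS replicate 4 are among those numbered apart, while the high libraries of 5% RPS (replicates 1, 2, and 3) are not.

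Over the 20 libraries the 15 pairs among the 6 members had Pearson's r of 0.81 to 0.98 and Spearman's rho of 0.79 to 0.98. The adjusted permutation p was 5.6e-05 or lower for r and 0.000112 or lower for rho, over 21 pairs. Leaving out the 2 libraries farthest from the median left r at 0.75 to 0.98. With the mean of each diet removed, r was 0.84 to 0.98, so the relation held within diets. The pairs with Dhcr7 had r of 0.23 to 0.52 and rho of 0.30 to 0.60, with r of 0.23 to 0.46 after the diet means were removed. Of those 6 pairs, the pair with Sqle had an adjusted permutation p under 0.05 for r (r = 0.52, p = 0.0243). By rho, 5 of the 6 pairs did, with adjusted permutation p of 0.00721 for Sqle, 0.0268 for Idi1, 0.0327 for Hmgcs1, and 0.0414 for Fdft1 and Lss, and the pair with Insig1 did not (0.198). The difference between the r values of Dhcr7 and those of the others was not tested. Without 0% RPS replicate 2, r among the 6 was 0.82 to 0.99 (19 libraries). Without the 3 libraries numbered apart it was 0.78 to 0.98 (17 libraries). Genes measured in the same library share its depth and its mix of cells. The log2 total of counts had r = 0.004 with Hmgcs1 (rho = -0.002, adjusted permutation p = 0.987 for r and 0.998 for rho, 16 relations). Without the 2 farthest libraries this r was -0.27. The Hmgcs1 values were already divided by a size factor for each library, so the part of depth was not tested by it.

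Much of the rest of the pathway varied with the 6. For each gene with a mean of at least 50, r with the mean z score of the 7 members was computed over the 20 libraries. The 10 genes most like the members included the sterol synthesis enzymes Msmo1 (r = 0.97), Cyp51 (0.96), Fdps (0.92), Mvd (0.92), Hsd17b7 (0.92), and Acat2 (0.90). They also included Aacs (0.95), which activates acetoacetate for lipid synthesis, and Scd2 (0.92), a fatty acid desaturase. These 8 had r of 0.91 to 0.98 without 0% RPS replicate 2 and 0.89 to 0.97 without the 3 libraries numbered apart. Of 16 other sterol synthesis enzymes measured, 11 had r above 0.8, compared with 29 of 11972 genes (0.242%). Those below included Erg28 (0.79), Lbr (0.50), Ebp (0.35), and Tm7sf2 (0.20). Several of these enzymes act, like Dhcr7, on the sterol ring after lanosterol. Yet Cyp51, Msmo1, Nsdhl (0.85), and Sc5d (0.88) act there too.

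**Figure D4:**
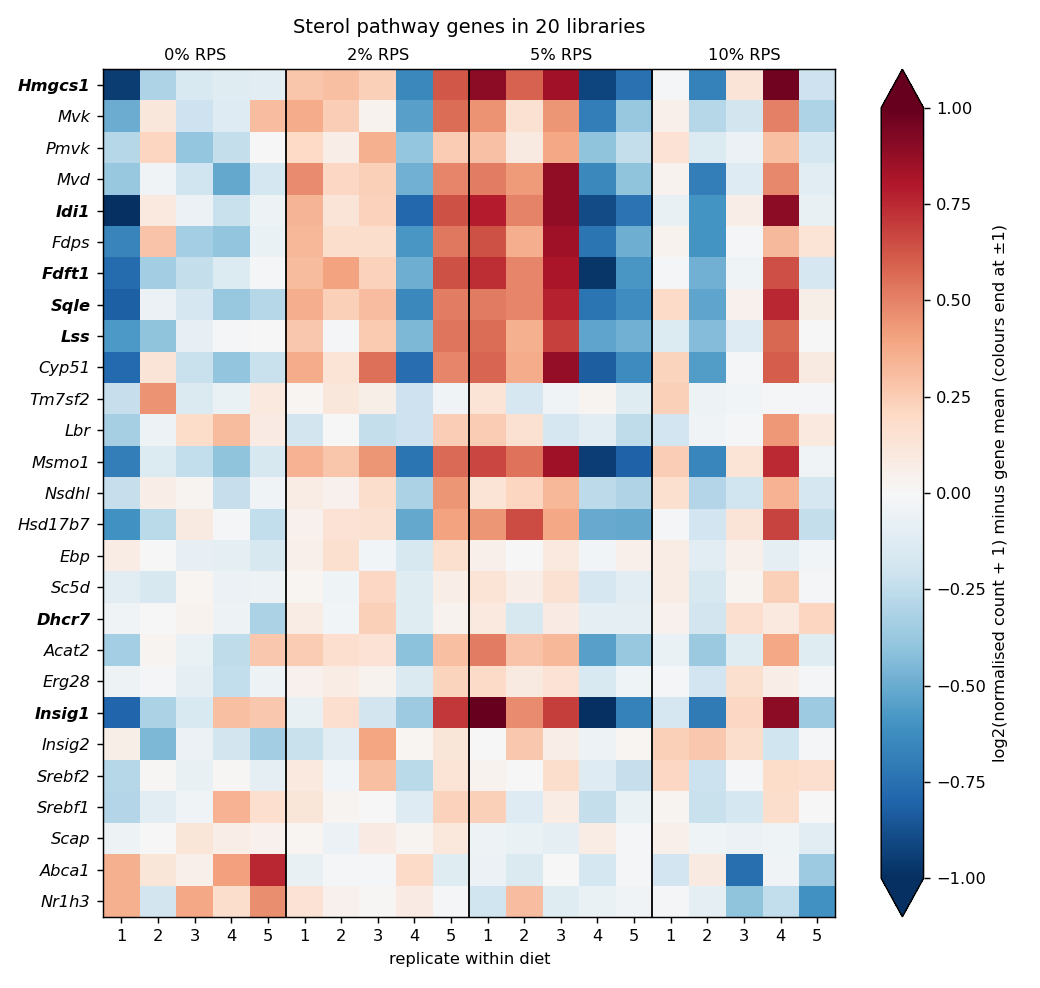
Each cell gives log2(normalised count + 1) of a gene in a library minus its mean over 20 libraries, with colours ending at ±1. Members are in bold, and libraries are grouped by diet. The columns of 0% RPS replicate 1, 2% RPS replicate 4, 5% RPS replicates 4 and 5, and 10% RPS replicate 2 are blue from Hmgcs1 to Cyp51, and Dhcr7, Ebp, and Scap stay pale throughout.

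Genes of the SREBP machinery were measured beside the members. Srebf2, which encodes SREBP2, ranged from 5835 to 8741.5 normalised counts over all 20 libraries and had a within-diet SD of 0.17. It had r = 0.72 and rho = 0.69 with Hmgcs1 (adjusted permutation p = 0.00304 and 0.00444, r = 0.74 without the 2 farthest libraries). Srebf1, which encodes the related factor SREBP1, had r = 0.64 and rho = 0.69 (0.00984 and 0.00444, r = 0.55 without them). Scap had r = -0.19 and rho = -0.19 (0.720 and 0.713, r = -0.08 without them) and a within-diet SD of 0.06. Insig2, the second INSIG gene, had r = 0.04 and rho = 0.04 (0.977 and 0.976, r = 0.16 without them). Without 0% RPS replicate 2 and without the 3 libraries numbered apart, r was 0.73 and 0.73 for Srebf2 and 0.64 and 0.58 for Srebf1. The transcript level of SREBP2 does not measure its cleavage. None of the 12 genes of this list was called at any starch level, here by an adjusted p no higher than 0.05 alone. That rule called 0.0239%, 1.90%, and 4.60% of all genes at 2, 5, and 10% RPS, so 0 of 12 says little either way. The median log2 fold change of the list was 0.05 at 10% RPS. Insig2 had the smallest p of the list at 10% RPS, with normalised counts of 1562 ± 222 at 0% RPS and 1911 ± 252 at 10% RPS (SD, n = 5) and a log2 fold change of 0.29 (95% interval 0.05 to 0.53, DESeq2 adjusted p = 0.150).

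The markers of other cell types were compared with the members. Of 9 markers of proliferating and crypt cells in the table, 5 had r above 0.5 with the members' mean z score (Mcm6 0.79, Pcna 0.73, Top2a 0.72, Mki67 0.58, and Cdk1 0.55), compared with 670 of 11972 genes (5.60%). The rest were near or below 0, at 0.12 (Ccnb1), 0.02 (Smoc2), -0.18 (Axin2), and -0.18 (Ascl2). The mean of all 9 markers had r = 0.61 and rho = 0.59 with Hmgcs1 (adjusted permutation p = 0.0157 and 0.0222, r = 0.50 without the 2 farthest libraries, r = 0.68 with diet means removed). This r was 0.63 without 0% RPS replicate 2, and without the 3 libraries numbered apart it was 0.55. The summed level of these 9 markers was 9408 to 12452 at 0% RPS, 9310 to 15026 at 2% RPS, 9258 to 14884 at 5% RPS, and 10983 to 13507 at 10% RPS, and none was at 0. Their part in the spread of the members was not tested. When their mean was added to the fit as a covariate, after the data had been seen, the number of members called stayed at 0 at each level. The number was 0 without the covariate too, so it cannot show their part. With the covariate the log2 fold change of Insig1 at 10% RPS and the slopes of Insig1 and Fdft1 turned negative, none of them significant. The markers of epithelium (r = 0.14, rho = 0.16) and of smooth muscle (r = -0.01, rho = 0.01) had adjusted permutation p of 0.742 and 0.987 for r and 0.713 and 0.998 for rho with Hmgcs1. Without the 2 farthest libraries these r were 0.21 and 0.10. The 4 leukocyte markers in the table had r = 0.33 and rho = 0.39 with Hmgcs1. Their adjusted permutation p was 0.403 and 0.234, and r was 0.26 without the 2 farthest libraries. Without 0% RPS replicate 2 this r was 0.51, and without the 3 libraries numbered apart 0.25. The differentiated colonocyte, neuron and glia, and adipocyte markers had r of 0.12, -0.16, and -0.22 (adjusted permutation p = 0.745, 0.720, and 0.720).

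Of the other lists, those for sterol uptake and transport, for the isoprenoid branch, and for fatty acid synthesis each had 1 gene called at 10% RPS. Here a call needed no fold threshold, only an adjusted p no higher than 0.05, by which 0.0239%, 1.90%, and 4.60% of all genes were called at 2, 5, and 10% RPS. In lists this small, 1 called gene says little either way beside these shares. None of 68 measured genes of the 6 lists was called at 2% RPS. At 10% RPS, 0 of 16 other sterol synthesis enzymes were called, with a median log2 fold change of 0.12 and 15 of 16 above 0. Of 11 uptake and transport genes, Npc1, which moves cholesterol out of lysosomes, was higher at 10% RPS, with 1745 ± 174 normalised counts compared with 1397 ± 176 (SD, n = 5). Its log2 fold change was 0.32 with an SE of 0.10, and it had a DESeq2 adjusted p of 0.0480 (edgeR 0.1097). Of 10 isoprenoid genes, Pdss2, a subunit of the enzyme that makes the side chain of coenzyme Q, was higher at 5% RPS (log2 fold change 0.36, DESeq2 adjusted p = 0.00483, edgeR 0.0645) and at 10% RPS (0.29, 0.0212, edgeR 0.0738). Its libraries at 5% RPS (1162 to 1446) and 10% RPS (1179 to 1355) all lay above those at 0% RPS (888.5 to 1129). Of 12 fatty acid synthesis genes, Fads2, a desaturase of long fatty acids, was lower at 10% RPS (log2 fold change -0.37, SE 0.11, DESeq2 adjusted p = 0.0330, edgeR 0.0858). The calls for Npc1 and Fads2 were lost without 8 and 6 of the 10 libraries left out 1 at a time. The call for Pdss2 at 10% RPS was lost without 4 of 10. Without 0% RPS replicate 2 the log2 fold change at 10% RPS was 0.28 for Npc1 (adjusted p = 0.0859), -0.26 for Fads2 (0.0836), and 0.29 for Pdss2 (0.0256). Without the 3 libraries numbered apart it was 0.34 for Npc1 (0.167), -0.42 for Fads2 (0.0541), and 0.31 for Pdss2 (0.0518).

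Abca1 and Nr1h3, genes of sterol export and sensing, fell at 10% RPS. Calls in this paragraph again needed no fold threshold, by which 4.60% of all genes were called at 10% RPS. Of 7 measured genes in the list for efflux, esterification, and LXR, 2 were called at 10% RPS, both lower, and 0 with the fold threshold of 1.5. The median log2 fold change was -0.31 over the 7 and 0 over all genes. Abca1, the transporter that exports cholesterol to apolipoproteins and a target of LXR, had normalised counts of 612, 521, 494, 636, and 808 at 0% RPS and 453, 475, 472, 545, and 439.5 at 2% RPS. They were 459, 433, 476, 422, and 471 at 5% RPS and 417, 509, 282, 465, and 371 at 10% RPS. All 5 libraries at 5% RPS lay below every library at 0% RPS, and 4 of 5 did so at 2% and at 10% RPS. The log2 fold change at 10% RPS was -0.58 with an SE of 0.14 (95% interval -0.86 to -0.31, DESeq2 adjusted p = 0.00370, edgeR 0.0416), just short of 1.5-fold. At 5% RPS it was -0.44 (adjusted p = 0.0647) and at 2% RPS -0.36 (0.450).

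Nr1h3 encodes LXR alpha itself. Its normalised counts were 877, 603, 898, 773, and 947 at 0% RPS and 676, 643.5, 519.6, 579, and 451 at 10% RPS. Apart from the 0% RPS library of 603, which is the one that stood apart, each library at 0% RPS lay above each at 10% RPS. The log2 fold change at 10% RPS was -0.51 with an SE of 0.13 (95% interval -0.76 to -0.26, DESeq2 adjusted p = 0.00486, edgeR 0.0458). Its slope of -0.05 per 1% of RPS passed the test with both tools (DESeq2 adjusted p = 0.00417, edgeR 0.0395), and the slope of Abca1, also -0.05, passed with DESeq2 (0.0137) but not with edgeR (0.0552). The Nr1h3 slope lost its call without the 3 libraries numbered apart (-0.04, adjusted p = 0.0748) and over the 3 starch diets alone (-0.04, 0.138). The Abca1 slope lost it without 10% RPS replicate 3 (-0.04, 0.0723), without 10% RPS replicate 5 (-0.05, 0.0638), and over the 3 starch diets alone, where it was -0.03 (0.479). Without the 3 libraries numbered apart, the log2 fold change at 10% RPS was -0.42 for Nr1h3 (adjusted p = 0.108) and -0.60 for Abca1 (0.0346). It was -0.60 without 0% RPS replicate 2 for Nr1h3 (5.15e-05) and -0.64 for Abca1 (0.00124). In a fit of the 0 and 10% diets alone, the log2 fold change of Abca1 was -0.58 with an adjusted p of 0.0501. The correlation of neither gene with Hmgcs1 passed the test. Abca1 had r = -0.24 and rho = -0.30 (adjusted permutation p = 0.720 and 0.472, r = -0.25 without the 2 farthest libraries), and Nr1h3 had r = -0.18 and rho = -0.17 (0.720 and 0.713, r = -0.03 without them). Both genes are also expressed in macrophages. Of 8 leukocyte markers 4 were in the table, none was called at 10% RPS, and their summed level was 5453.5 to 21303 at 0% RPS and 7000.1 to 10476 at 10% RPS. Markers of other cells also differed at 10% RPS. Of 8 epithelium markers all 8 had a log2 fold change above 0 (median 0.13) and Epcam was called higher. Of 8 differentiated colonocyte markers 6 did (median 0.30), and Krt20 and Ceacam1 were called higher. Of 8 smooth muscle markers none did (median -0.25) and none was called. Of 7 adipocyte markers in the table all 7 had a log2 fold change above 0 (median 0.85), and none was called. The summed level of the adipocyte markers was 3566 to 9810 at 0% RPS (median 6971) and 5200.5 to 29156 at 10% RPS (median 6764). Of 8 neuron and glia markers, Gfap alone had a log2 fold change above 0 (median -0.23), and it was called higher. Of 9 proliferating and crypt cell markers 6 had a log2 fold change above 0 (median 0.16), while Smoc2 was called lower. The summed level of the colonocyte markers was 241530 to 529980 at 0% RPS and 483040 to 696210 at 10% RPS. That of the epithelium markers was 285340 to 344050 and 295690 to 391970, and that of the smooth muscle markers was 126310 to 281490 and 129580 to 218910. With a smooth muscle covariate in the fit, the log2 fold change at 10% RPS was -0.59 for Abca1 (adjusted p = 0.0030) and -0.53 for Nr1h3 (0.00217). The part of the epithelial, colonocyte, glial, adipocyte, and leukocyte markers in these 2 results was not tested.

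**Figure D5:**
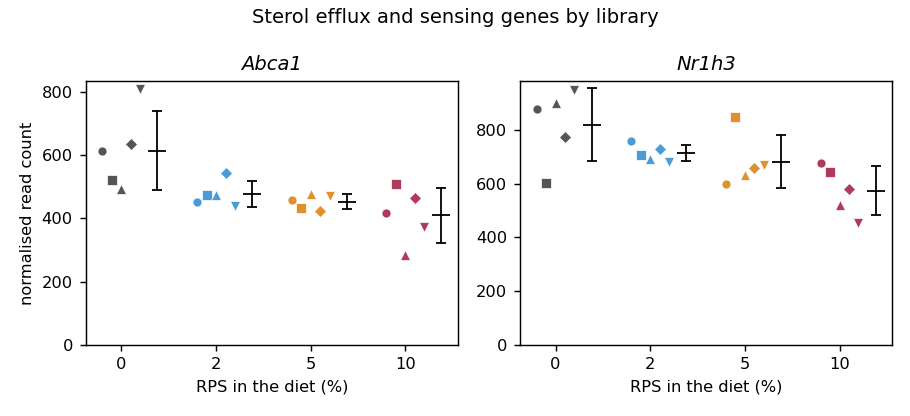
Normalised read count by library and RPS in the diet (%) for Abca1 (efflux) and Nr1h3 (sterol sensing), with the mean ± SD of 5 libraries in black. Mean Abca1 was 614 at 0% RPS and 409 at 10% RPS, and 4 of the 5 Abca1 libraries at 10% RPS lie below every library at 0% RPS.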

How the data were processed

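The authors deposited raw read counts per Ensembl gene for 20 libraries, 5 per diet. Per the study's methods, stranded mRNA libraries were sequenced as single reads of 50 bases, and the reads were trimmed for quality, mapped to GRCm39, and counted in CLC Genomics Workbench. The annotation, the use of strand, and the treatment of reads with several matches are not given in the sources used here. Libraries were grouped by the treatment in their labels, and replicates were numbered in accession order, so numbers pair nothing. Whether mice shared cages or litters is not given, so p-values measure the spread between these mice only. Symbols and coordinates are from GENCODE M39 (12682 of 12701 identifiers matched).

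Counts were tested as in the study with DESeq2 1.42.0 (R 4.3.3), with all 20 libraries in 1 fit, diet as the only term, Wald tests, and Benjamini-Hochberg adjustment over all genes. Calls required a fold change of at least 1.5 and an adjusted p no higher than 0.05. The fold threshold was left out for the trend over the percentage of RPS and for the gene lists and cell type markers. edgeR 4.0.16 (quasi-likelihood test) was the alternative. Correlations used log2(normalised count + 1) and 100000 permutations of the libraries, two-sided. Percentages of exon overlap and of shared 50-base windows come from GENCODE transcripts. The fits were tested on simulated counts. The members and the gene lists were chosen with earlier results of these data known. Named are the members, Srebf2, Srebf1, Scap, Insig2, up to 3 genes per list with the smallest p at 10% RPS, and the 10 genes most like the members. The other genes were named after their values were seen. Some genes covered by this rule or by the lists are not reported here. Listed genes that are not in the table are Acat3, Npc1l1, Abcg1, Abcg5, Abcg8, Soat2, and Ch25h, and among the markers Lgr5, Lep, Ptprc, Ms4a1, Cd3e, and Cd8a.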

Additional observations from a re-analysis of the deposited data

Results flagged for a closer look

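By Dixon's test, 2 of 48 groups of 5 libraries held a value far from the other 4, about as many as chance gives at 1 in 20. These 48 groups did not cover all of the named genes. The normalised count of Hmgcs1 in 0% RPS replicate 1 was 2263, and the other 4 libraries of that diet had 3519.6 to 4028. This library was also the lowest of its diet for 6 of the 7 members. No member was called at any starch level with it or without it, so this count does not show what it adds. The normalised count of Dhcr7 in 0% RPS replicate 5 was 2093, and the other 4 had 2527 to 2672. Without it, the log2 fold change of Dhcr7 at 5% RPS was -0.016 in place of 0.040, and neither passed the test.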

How the results depend on the processing

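The number of members called was 0 at each starch level, between starch diets, and for the trend under every alternative run, namely edgeR, TMM factors, a filter at 10 counts in 5 libraries, no independent or Cook filtering, no fold threshold, only the diets compared, a smooth muscle or (added later) a proliferation covariate, omission of the 3 libraries numbered apart, and omission of each library in turn (0 to 0). The lowest adjusted p of a member was 0.0795, for Fdft1 at 5% RPS without 5% RPS replicate 4. Of 602 alternative values of the members' fold changes and slopes, 584 kept their direction, and 18, all of them not significant, turned negative. Without the 3 libraries these were Insig1 at 2% RPS (-0.019) and 10% RPS (-0.092) and Lss at 10% RPS (-0.035). With the proliferation covariate they were Insig1 at 10% RPS (-0.064) and the slopes of Insig1 (-0.0102) and Fdft1 (-1.8e-05). Over the 3 starch diets alone they were the slopes of Hmgcs1 (-0.012), Sqle (-0.0064), Insig1 (-0.0077), Idi1 (-0.0093), Fdft1 (-0.031), and Lss (-0.020). With 1 library left out, the log2 fold change of Insig1 ranged from -0.019 (without 2% RPS replicate 5) to 0.30 at 2% RPS and from -0.14 (without 10% RPS replicate 4) to 0.31 at 10% RPS, and that of Dhcr7 at 5% RPS from -0.016 (without 0% RPS replicate 5) to 0.071. The slopes, each lowest without 10% RPS replicate 4, ranged from -0.0105 to 0.032 for Insig1, from -0.00017 to 0.030 for Fdft1, and from -0.0031 to 0.024 for Lss. The cause was not tested.

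Among the 68 other pathway genes, without a fold threshold, 1 was called at 5% RPS and 5 at 10% RPS. At 5% RPS the count was 0 with edgeR, 2 with the smooth muscle covariate, 3 with the proliferation covariate, 0 with a fold threshold of 1.5, and 1 to 3 with 1 library left out. At 10% RPS it was 7 with the smooth muscle covariate, 4 with TMM factors, 2 with edgeR, 2 with only the diets compared, 1 without the 3 libraries, 0 with a fold threshold of 1.5, and 2 to 6 with 1 library left out. Alternatives for these counts and for the starch diets against each other were added after the data had been seen. No paired analysis was possible because the replicate numbers follow accession order and pair no mice. At 5 mice per diet, the spread of 6 of the members limits what can be seen, since their 95% intervals are wider than a 1.5-fold change.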
